A study of Mus musculus with 9 samples.

Results

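Aminoacyl-tRNA synthetases are the enzymes that join each amino acid to its transfer RNA. The 37 genes of this family described here were taken from the 55536 gene IDs of a count table by symbol, 21 coding for cytosolic enzymes and 16 for mitochondrial ones. Membership follows the gene family and not a measured value, but members and lists were chosen with earlier results of these data known. A gene was counted as cytosolic where its symbol lacks the suffix 2, with Tarsl2, a threonyl-tRNA synthetase-like gene, added to the cytosolic set. The mRNA of macrophages grown from wild-type mouse bone marrow (BMDM) was sequenced in 9 libraries. In BMDM_EKO the cells had received exosomes, small vesicles shed by cells, from BMDM of ApoE-deficient mice; in BMDM_WT the exosomes came from BMDM of wild-type mice; and BMDM_PBS received the saline vehicle. Each group had 3 libraries, and exposure lasted 18 h, with exosomes at 2e+09 particles per mL. All the recipient cells were of wild-type genotype, came from the marrow of male mice aged 6 to 12 weeks, and had been differentiated with M-CSF, the macrophage growth factor, at 25 ng/mL for 6 days. ApoE was lacking in the donors of the vesicles and not in the recipients, so that Apoe counts in these libraries check no label. The design text calls the libraries biological replicates, and no source used here ties them to separate mice or to separate exosome preparations, so the p-values speak of library-to-library spread, part of which may be technical.

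A synthetase activates its amino acid with ATP and transfers it to the 3′ end of the matching tRNA, which carries it to the ribosome. Cytosolic and mitochondrial ribosomes mostly draw on separate enzymes, both encoded in the nucleus, and in the cytosol several synthetases are held in a multi-synthetase complex on scaffold proteins. When a tRNA stays uncharged the kinase GCN2 senses it, translation of the transcription factor ATF4 goes up, and many genes of amino acid supply, several cytosolic synthetases among them, are known targets of ATF4.

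The libraries held 28581306 to 35929596 counts and 17150 to 18680 detected genes. All 37 synthetases passed the filter on low counts that left 13815 genes, with 140 counts of Nars2 as the lowest and 12399 counts of Lars2 as the highest in any library. On the first component of a principal component analysis, with 15.2% of the variance, replicate 3 of BMDM_WT lay at 57.5 and the other libraries between -16.8 and 3.43. On the second, with 15.1%, replicate 2 of BMDM_WT lay at -45.4 and replicate 2 of BMDM_EKO at 38.0. The other libraries lay between -7.07 and 17.8 there. Results that rest on replicate 3 of BMDM_WT are given with and without it. Of the 10 macrophage markers examined, 10 reached 1 CPM (counts scaled to library size with TMM factors) in every library, and their summed level was 21052 to 22048 CPM in BMDM_EKO, 21335 to 21994 CPM in BMDM_WT and 23104 to 24335 CPM in BMDM_PBS. Of the 10 neutrophil markers 1 reached 1 CPM in every library and none was at 0 throughout, and they summed to 3.78 to 18.3 CPM in BMDM_EKO, 10.4 to 30.7 CPM in BMDM_WT and 21.1 to 30.3 CPM in BMDM_PBS. The 4 endothelial markers, of which Kdr and Vwf reached 1 CPM in every library and none was at 0 throughout, summed to 199 to 206 CPM in BMDM_EKO, 180 to 206 CPM in BMDM_WT and 145 to 168 CPM in BMDM_PBS. The 5 B cell markers, with Cd79a at 0 throughout, summed to 0.755 to 1.25 CPM in BMDM_EKO, 0.244 to 0.589 CPM in BMDM_WT and 1.08 to 2.16 CPM in BMDM_PBS, so that BMDM_WT was lowest. The 5 mast cell and basophil markers, with Mcpt8, Fcer1a and Ms4a2 at 0 throughout, summed to 2.32 to 3.49 CPM in BMDM_EKO, 2.45 to 3.20 CPM in BMDM_WT and 1.08 to 2.25 CPM in BMDM_PBS. The summed ranges of the T and NK cell, dendritic cell, fibroblast and erythroid markers overlapped between the exosome groups, and none exceeded 62.5 CPM. The part of the marker differences in the results was not tested.

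The comparison of the exosome sources asks whether the genotype of the donor of the vesicles changes what the recipient cells express. Of the 21 cytosolic synthetases 7 were higher in BMDM_EKO than in BMDM_WT at an adjusted p under 0.05 and 0 were lower, where 0.695% of all genes tested were called, 0.282% higher and 0.413% lower. DESeq2 and limma-voom called the same 7 and none lower, and the 10 cytosolic genes with an unadjusted p under 0.05 all had positive fold changes. The 7 were Aars, Cars, Yars, Eprs, Nars, Mars and Sars, the synthetases for alanine, cysteine, tyrosine, glutamate with proline, asparagine, methionine and serine. None of the 16 mitochondrial enzymes was called in edgeR or DESeq2, 1 had an unadjusted p under 0.05, and limma-voom called 1, Lars2. In bulk RNA a smaller number of cells of a type and less RNA in each cell cannot be told apart. With all genes adjusted together, the calls of Aars, Cars and Yars held in each of the 13 alternatives run, whereas Nars and Mars each lost theirs in 5 and Eprs and Sars in 4, every one of them the loss of a single library.

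Aars, alanyl-tRNA synthetase (GRCm38 chr8:111033144-111057664, plus strand), had 134, 135 and 135 CPM in BMDM_EKO, 96.8, 98.5 and 95.2 CPM in BMDM_WT, and 114, 110 and 127 CPM in BMDM_PBS. The 3 groups did not overlap, with every BMDM_PBS library lying between the exosome groups. Its log2 fold change between BMDM_EKO and BMDM_WT was 0.48 ± 0.05 (SE; adjusted p = 3.31e-07), a level 39.1% higher. Exons of other genes cover 15.1% of its exon length, those of Exosc6 and Gm24103, both listed at 0 in all 9 libraries, and Aars shares 1326 identical bases with Exosc6. Exosc6 lies on the same strand, and how reads of overlapping genes were counted is not given. Its 0 therefore does not show that the gene was silent, and reads of Aars in that stretch may be uncounted.

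Cars, cysteinyl-tRNA synthetase (chr7:143557230-143600090, minus strand), had 41.5, 43.7 and 43.7 CPM in BMDM_EKO, 26.4, 27.5 and 28.2 CPM in BMDM_WT, and 32.1, 39.4 and 37.9 CPM in BMDM_PBS. As for Aars, the libraries fell into 3 separate ranges, BMDM_EKO at the top and BMDM_WT at the bottom. Among the synthetases it had the largest fitted fold between the exosome sources, a log2 fold change of 0.65 ± 0.09 (adjusted p = 2.20e-05), or 57.1% higher in BMDM_EKO. Yars, tyrosyl-tRNA synthetase (chr4:129189760-129219607, plus strand), stood at 26.6, 31.9 and 31.6 CPM in BMDM_EKO, at 19.9, 18.7 and 21.3 CPM in BMDM_WT, and at 25.0, 26.7 and 23.7 CPM in BMDM_PBS. Every BMDM_EKO library lay above every BMDM_WT library, while replicate 1 of BMDM_EKO fell within the BMDM_PBS range. The log2 fold change of Yars between BMDM_EKO and BMDM_WT was 0.59 ± 0.11 (adjusted p = 0.00118).

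The other called enzymes differed by less. Mars, methionyl-tRNA synthetase, which also charges the initiator tRNA (chr10:127296221-127311786, minus strand), had 45.6, 46.4 and 50.3 CPM in BMDM_EKO, 36.8, 40.8 and 33.8 CPM in BMDM_WT, and 41.0, 45.2 and 44.8 CPM in BMDM_PBS. BMDM_EKO again lay above both other groups, here narrowly above BMDM_PBS, and the log2 fold change against BMDM_WT was 0.35 ± 0.08 (adjusted p = 0.0297). Of the Mars exon length 1.99% is shared with the opposite-strand gene Ddit3, which had 11.9 to 16.4 CPM.

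Eprs, the bifunctional enzyme that charges glutamate and proline tRNAs (chr1:185363044-185428360, plus strand), had 149, 157 and 154 CPM in BMDM_EKO, 135, 131 and 126 CPM in BMDM_WT, and 148, 142 and 130 CPM in BMDM_PBS. The exosome groups were apart, and the BMDM_PBS libraries spread from the BMDM_WT range to just under the BMDM_EKO range. Between the exosome sources its log2 fold change was 0.23 ± 0.05 (adjusted p = 0.0127). Sars, seryl-tRNA synthetase (chr3:108424865-108445209, minus strand), had 104, 94.7 and 106 CPM in BMDM_EKO, 81.4, 82.0 and 93.5 CPM in BMDM_WT, and 89.7, 90.3 and 91.6 CPM in BMDM_PBS. Its exosome groups came close, replicate 2 of BMDM_EKO standing little above replicate 3 of BMDM_WT, at a log2 fold change of 0.24 ± 0.06 (adjusted p = 0.0397). Nars, asparaginyl-tRNA synthetase (chr18:64499647-64516652, minus strand), had 237, 235 and 254 CPM in BMDM_EKO, 222, 216 and 205 CPM in BMDM_WT, and 254, 241 and 241 CPM in BMDM_PBS. Replicates 1 and 2 of BMDM_EKO lay under the BMDM_PBS range of 240.5 to 253.8 CPM, and replicate 3 lay just above it at 254.4 CPM. The BMDM_WT libraries lay under both groups, with a log2 fold change between the exosome sources of 0.18 ± 0.04 (adjusted p = 0.0266).

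Without replicate 3 of BMDM_WT, which stood apart on the first component, 4 of the 7 calls remained, those of Aars, Cars, Yars and Sars. The adjusted p was then 0.256 for Nars, 0.137 for Eprs and 0.256 for Mars. Without replicate 2 of BMDM_WT the calls of Nars, Eprs and Sars were lost. Without replicate 2 of BMDM_EKO those of Nars, Eprs and Mars were lost. Over the 6 ways of leaving out a library of these groups, 3 to 5 cytosolic enzymes were called.

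**Figure D1:**
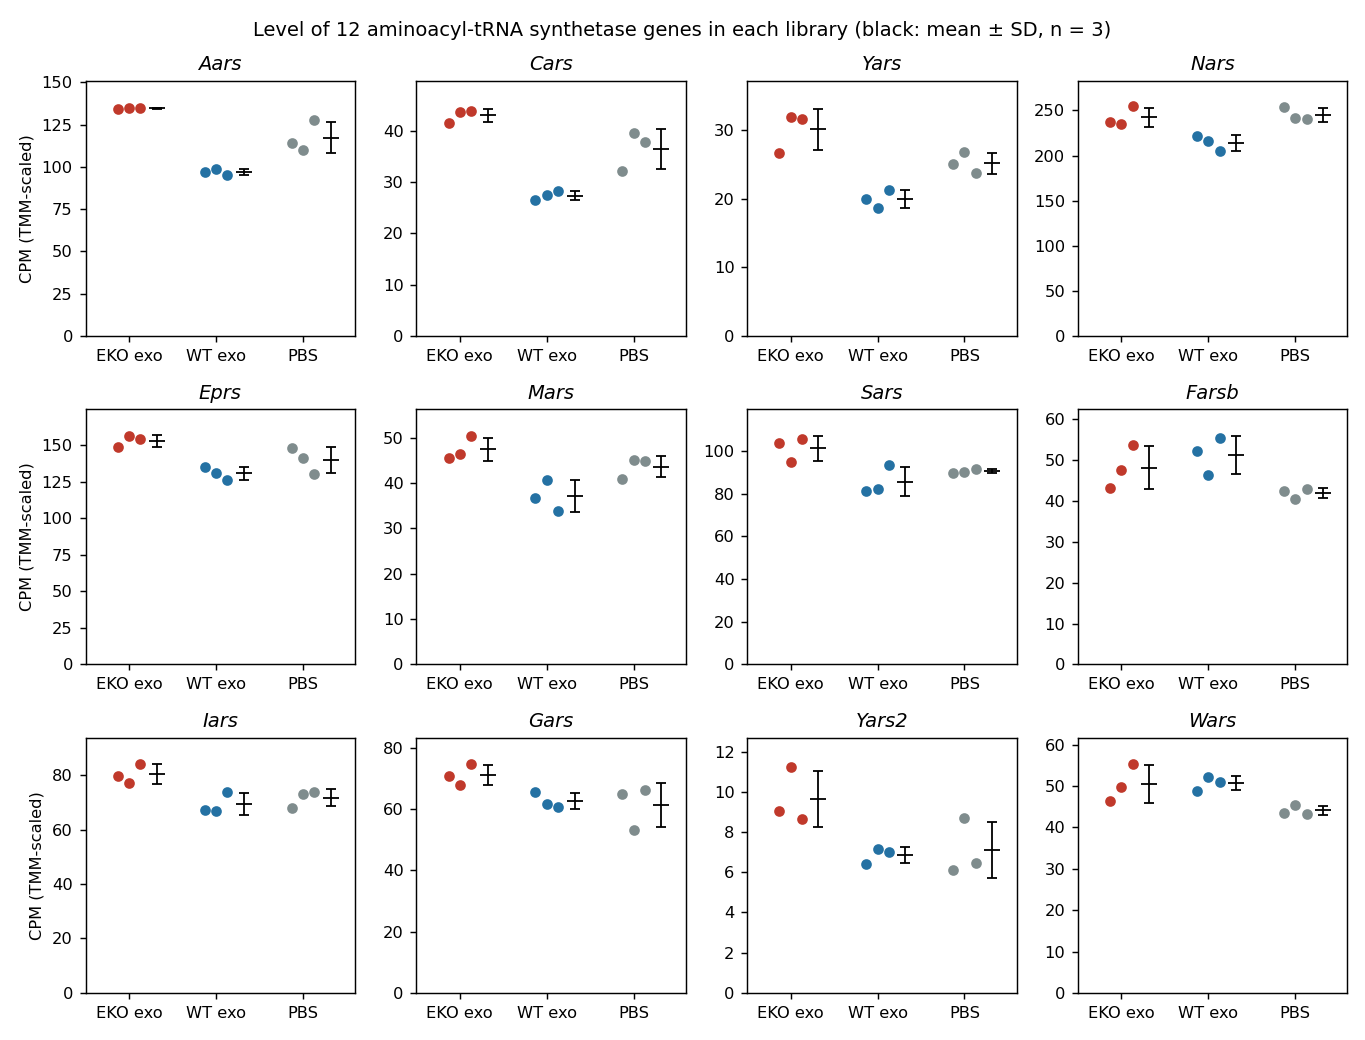
Level of 12 synthetase genes in each library (y axis, CPM scaled with TMM factors, from 0), with the libraries of ApoE-deficient exosomes (EKO exo), wild-type exosomes (WT exo) and PBS from left to right and the mean ± SD (n = 3) in black beside the points. In Aars the BMDM_EKO libraries sit at 134 to 135 CPM, above BMDM_PBS, and the BMDM_WT libraries at 95.2 to 98.5 CPM lie below it, an order that Cars shares.

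Promoter windows are shown for the cytosolic members that hold a match to TGATGNAA, letters of the C/EBP-ATF response element to which ATF4 binds with C/EBP partners, since ATF4 and members of its pathway also differed between the exosome sources. The windows are those of RefSeq on GRCm38.p6, 250 bases before to 50 bases after a gene's start. They were found by symbol for 28 of the 37 genes, and not for Cars, Rars, Nars, Hars, Hars2, Vars, Wars, Lars and Pars2. Both strands were searched for this motif alone, so no overlap with another motif arises, and the motif was chosen with results of these data known. A match was present for 5 of 14 cytosolic genes with a window (35.7%) and 0 of 14 mitochondrial genes, against 1304 of 32851 windows in the whole table (3.97%). Aars and Yars, 2 of the 5 genes that were called between the exosome sources and have a window, held it, and Eprs, Mars and Sars did not. Gars, Iars and Tars, the glycine, isoleucine and threonine enzymes, held it without a call. A match is a description of letters and no evidence of binding. The whole windows of Aars (chr8:111033592-111033891, plus strand, with 2 matches) and Yars (chr4:129189653-129189952, plus strand) follow, and then 60 bases around the match of Iars (chr13:49682111-49682170, plus strand), Gars (chr6:55037945-55038004, plus strand) and Tars (chr15:11399640-11399699, minus strand), each read 5′ to 3′ on the gene's strand with the match in capitals. Capitals reading TTNCATCA are the same motif on the opposite strand.
Aars: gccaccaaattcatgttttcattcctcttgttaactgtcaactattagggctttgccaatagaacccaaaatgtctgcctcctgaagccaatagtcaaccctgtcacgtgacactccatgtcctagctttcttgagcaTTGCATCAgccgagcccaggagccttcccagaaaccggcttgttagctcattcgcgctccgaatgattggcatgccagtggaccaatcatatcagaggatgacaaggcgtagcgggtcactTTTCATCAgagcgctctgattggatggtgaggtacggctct
Yars: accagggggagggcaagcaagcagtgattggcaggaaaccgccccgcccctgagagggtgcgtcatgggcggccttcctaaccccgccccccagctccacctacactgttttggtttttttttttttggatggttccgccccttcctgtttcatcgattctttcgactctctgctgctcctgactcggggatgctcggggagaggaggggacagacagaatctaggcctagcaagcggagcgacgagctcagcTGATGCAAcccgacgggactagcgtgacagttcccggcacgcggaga
Iars: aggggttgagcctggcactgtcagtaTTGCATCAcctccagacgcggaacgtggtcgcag
Gars: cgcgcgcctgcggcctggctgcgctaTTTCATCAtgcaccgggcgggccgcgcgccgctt
Tars: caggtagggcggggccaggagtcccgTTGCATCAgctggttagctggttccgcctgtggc

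Iars had the lowest p of the enzymes that missed the threshold between the exosome sources. It had 79.8, 77.2 and 84.2 CPM in BMDM_EKO, 67.3, 66.8 and 73.8 CPM in BMDM_WT, and 68.0, 73.1 and 74.0 CPM in BMDM_PBS. The BMDM_EKO libraries lay above all others, and the log2 fold change against BMDM_WT was 0.21 ± 0.06 (adjusted p = 0.143, 95% interval 0.09 to 0.34). Iars matches the gene Gm4849 at 96.0% over 1656 bases, and that gene held 1 to 8 counts per library. Gars had 70.7, 67.8 and 74.5 CPM in BMDM_EKO, 65.5, 61.4 and 60.6 CPM in BMDM_WT, and 64.8, 53.1 and 66.2 CPM in BMDM_PBS. Its BMDM_EKO libraries too exceeded every other, with a log2 fold change of 0.18 ± 0.07 against BMDM_WT (adjusted p = 0.423) and 0.21 ± 0.07 against BMDM_PBS (adjusted p = 0.117).

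Of the 21 cytosolic genes 10 had every BMDM_EKO library above every BMDM_WT library and 1, Tarsl2, had every one below, where 7.04% and 7.01% of all genes tested did so in these directions. The 14 uncalled members ran from a log2 fold change of -0.28 to 0.21, and the median of the 21 was 0.06, beside 0.0002 over all genes. For 9 of the 21 the fitted change was below 0. Grouped after their values were seen, by the fold of the catalytic domain, 3 of 9 class I and 3 of 11 class II cytosolic enzymes were called, and Eprs, which joins a class I and a class II domain, was the seventh. Grouped likewise by assembly, 2 of 8 enzymes of the multi-synthetase complex and 5 of 13 free ones were called.

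**Figure D2:**
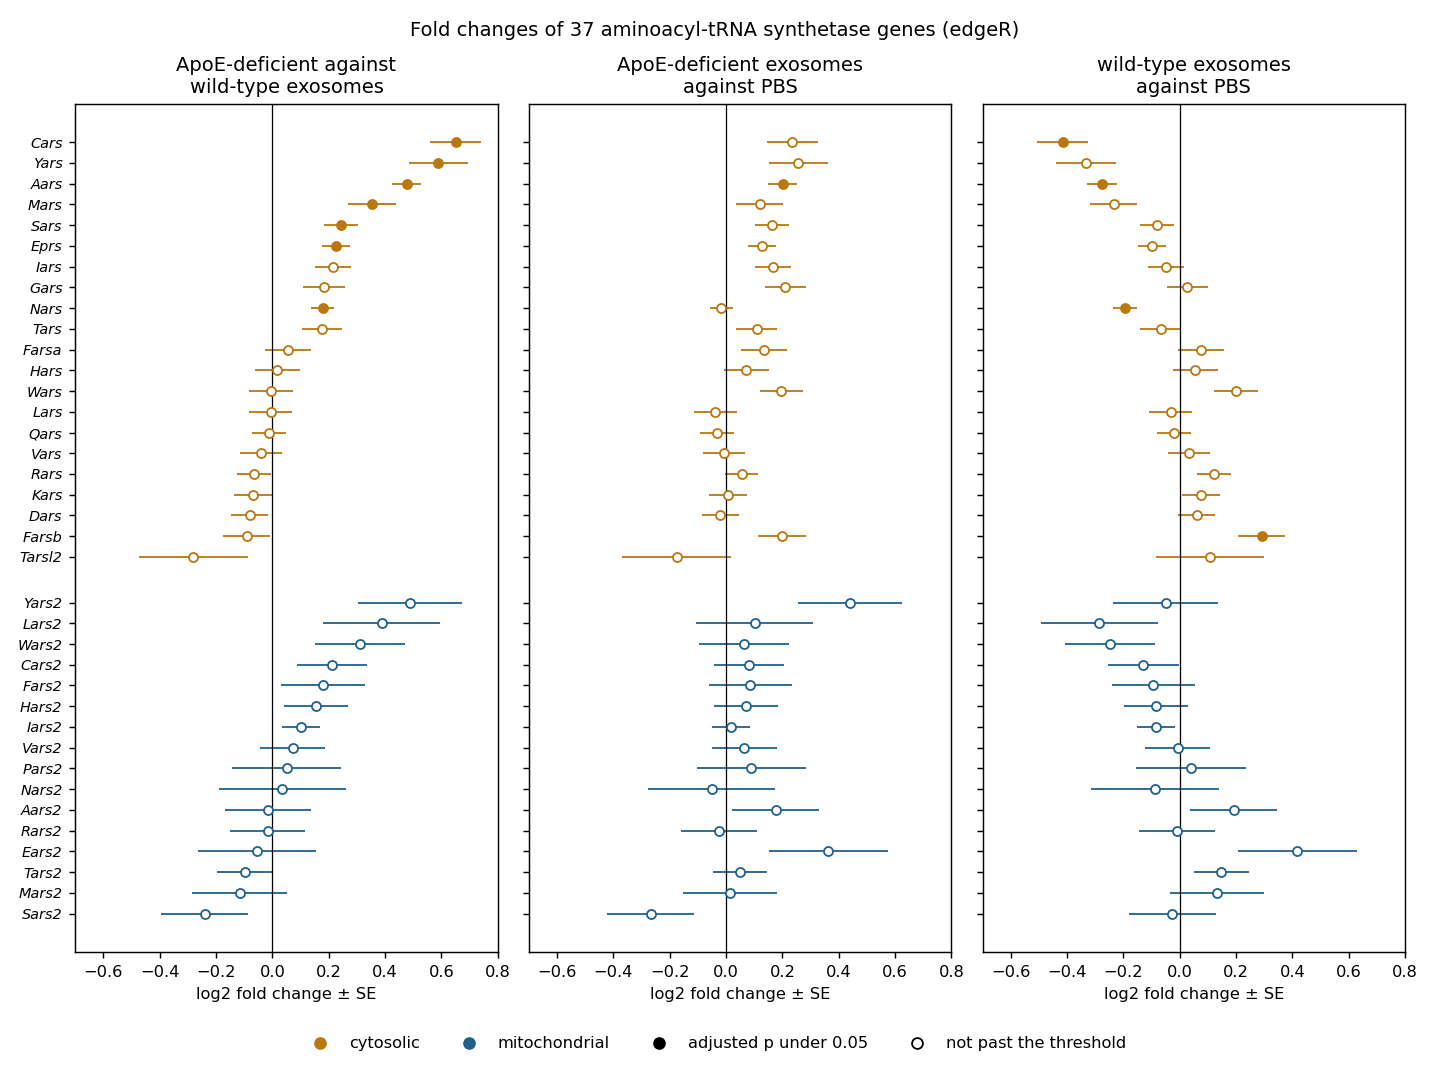
Log2 fold change ± SE (x axis) of the 21 cytosolic (brown) and 16 mitochondrial (blue) synthetase genes, ordered by the change between ApoE-deficient and wild-type exosomes, for that comparison, ApoE-deficient exosomes against PBS and wild-type exosomes against PBS; filled points passed an adjusted p of 0.05. The 7 filled points of the left panel are all cytosolic, and Aars and Cars lie right of 0 in the left and middle panels and left of it in the right panel.

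The comparison of BMDM_WT with BMDM_PBS asks what vesicles from donors that have ApoE do to the recipient cells. Of the 21 cytosolic enzymes 3 were lower in BMDM_WT, Aars, Cars and Nars, and 1 was higher, Farsb, while 4.11% of all genes tested were called, 2.18% lower and 1.93% higher. This comparison shares the BMDM_WT libraries with the one between the exosome sources, so the per-library levels above enter both. The log2 fold change in BMDM_WT against BMDM_PBS was -0.28 ± 0.05 for Aars (adjusted p = 0.000714), -0.42 ± 0.09 for Cars (adjusted p = 0.00319) and -0.20 ± 0.04 for Nars (adjusted p = 0.00261). These 3 calls held in all 13 alternatives, the loss of replicate 3 of BMDM_WT included. Yars had a log2 fold change of -0.33 ± 0.11 and missed the threshold in edgeR (adjusted p = 0.0689), and DESeq2 called it (adjusted p = 0.0472; 0.0472 to 0.258 over the alternatives).

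Farsb, the beta subunit of phenylalanyl-tRNA synthetase (chr1:78417975-78488897, minus strand), had 43.1, 47.6 and 53.6 CPM in BMDM_EKO, 52.1, 46.3 and 55.4 CPM in BMDM_WT, and 42.3, 40.5 and 42.9 CPM in BMDM_PBS. All libraries of both exosome groups lay above those of BMDM_PBS, and the log2 fold change was 0.29 ± 0.08 in BMDM_WT against BMDM_PBS (adjusted p = 0.0387). That call was lost in 5 alternatives, each the loss of a single library (adjusted p = 0.227 without replicate 3 of BMDM_WT). Its partner Farsa, the alpha subunit, had a log2 fold change of 0.08 ± 0.08 in the same comparison (adjusted p = 0.785). Wars, tryptophanyl-tRNA synthetase, an enzyme known to be induced by interferon-gamma, had 46.4, 49.9 and 55.4 CPM in BMDM_EKO, 48.8, 52.3 and 50.9 CPM in BMDM_WT, and 43.5, 45.4 and 43.4 CPM in BMDM_PBS. Both exosome groups again exceeded BMDM_PBS without overlap, at log2 fold changes of 0.20 ± 0.08 for BMDM_EKO (adjusted p = 0.203) and 0.20 ± 0.08 for BMDM_WT (adjusted p = 0.174). Of the 21 cytosolic genes 5 had all BMDM_WT libraries above all BMDM_PBS libraries and 5 had all below, beside 8.59% and 8.87% of all genes.

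In BMDM_EKO against BMDM_PBS 1 of the 21 cytosolic enzymes was called, a share near the 4.23% of all genes tested that were called, 1.82% higher and 2.41% lower. It was Aars, higher by 0.20 ± 0.05 on the log2 scale (adjusted p = 0.0169). The call was lost in 5 of the 13 alternatives, without any single BMDM_EKO library or without replicate 1 or 2 of BMDM_PBS, with an adjusted p up to 0.161. Gars, Sars, Cars, Iars, Eprs, Wars, Yars and Farsb had unadjusted p under 0.05 and positive log2 fold changes of 0.13 to 0.26. The BMDM_EKO libraries lay above all BMDM_PBS libraries for 9 of the 21, and below them for none, beside 9.06% and 9.24% of all genes, and the median log2 fold change of the 21 was 0.12 against -0.0005 over all genes. Summed over the 21 genes, the cytosolic level was 1601 ± 44.5 CPM in BMDM_EKO, 1451 ± 22.1 CPM in BMDM_WT and 1509 ± 16.6 CPM in BMDM_PBS (SD, n = 3 each). No test was made of these sums.

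The mitochondrial enzymes had no call in any comparison in edgeR or DESeq2, and none in limma-voom in either comparison with BMDM_PBS. An unadjusted p under 0.05 was reached by 1 of the 16 in BMDM_EKO against BMDM_WT, by 0 in BMDM_WT against BMDM_PBS and by 1 in BMDM_EKO against BMDM_PBS, where 8.15%, 14.0% and 13.1% of all genes did so. That gene was Yars2, the mitochondrial tyrosyl-tRNA synthetase, with 9.04, 11.3 and 8.63 CPM in BMDM_EKO, 6.43, 7.14 and 7.02 CPM in BMDM_WT, and 6.11, 8.69 and 6.49 CPM in BMDM_PBS. Its exosome groups did not overlap, and its log2 fold change was 0.49 ± 0.18 between them (adjusted p = 0.363) and 0.44 ± 0.18 in BMDM_EKO against BMDM_PBS (adjusted p = 0.248). The fold changes of mitochondrial members were less precise, with a median SE of 0.15 against 0.07 for cytosolic members between the exosome sources. Their 95% intervals in that comparison reached from -0.55 to 0.89, so a change of the size seen in Cars lay inside the interval of some mitochondrial genes. The median of the 16 was 0.06 between the exosome sources, -0.04 in BMDM_WT against BMDM_PBS and 0.07 in BMDM_EKO against BMDM_PBS. With single libraries left out these medians ran from 0.014 to 0.11, from -0.067 to 0.0062 and from 0.033 to 0.086, so that the sign in BMDM_WT against BMDM_PBS rests on single libraries. All BMDM_EKO libraries exceeded all BMDM_WT libraries for 3 of the 16, Yars2, Wars2 and Lars2, beside 7.04% of all genes.

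Per kilobase of merged exon, the scale used here to set genes beside each other, Nars was the highest cytosolic member in BMDM_PBS at 56.3 CPM per kb, followed by Rars, arginyl-tRNA synthetase, at 24.4. Tarsl2 was the lowest at 1.25 CPM per kb, below Yars at 4.23 and Cars at 5.54. The mitochondrial set ran from 0.76 CPM per kb for Mars2 and 0.82 for Nars2 to 27.6 for Lars2. Merged exon lengths hold every annotated transcript, so these levels depend on the annotation. Exons of other genes cover 24.2% of the exon length of Iars2, the mitochondrial isoleucine enzyme. Iars2 shares 2034 identical bases with the opposite-strand gene Rab3gap2, which had 163 to 218 CPM. Among 18 pairs of a cytosolic and a mitochondrial gene for the same amino acid, the cytosolic level exceeded the mitochondrial level in all libraries, lowest against highest, for 15, by a factor of 1.69 (Iars and Iars2) to 68.7 (Nars and Nars2) in the BMDM_PBS means. The exceptions were Lars with Lars2, Tarsl2 with Tars2, where the mitochondrial mean was higher, and Yars with Yars2, whose ranges overlapped. Between the exosome sources the cytosolic log2 fold change was the greater in 10 of the 18 pairs.

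**Figure D3:**
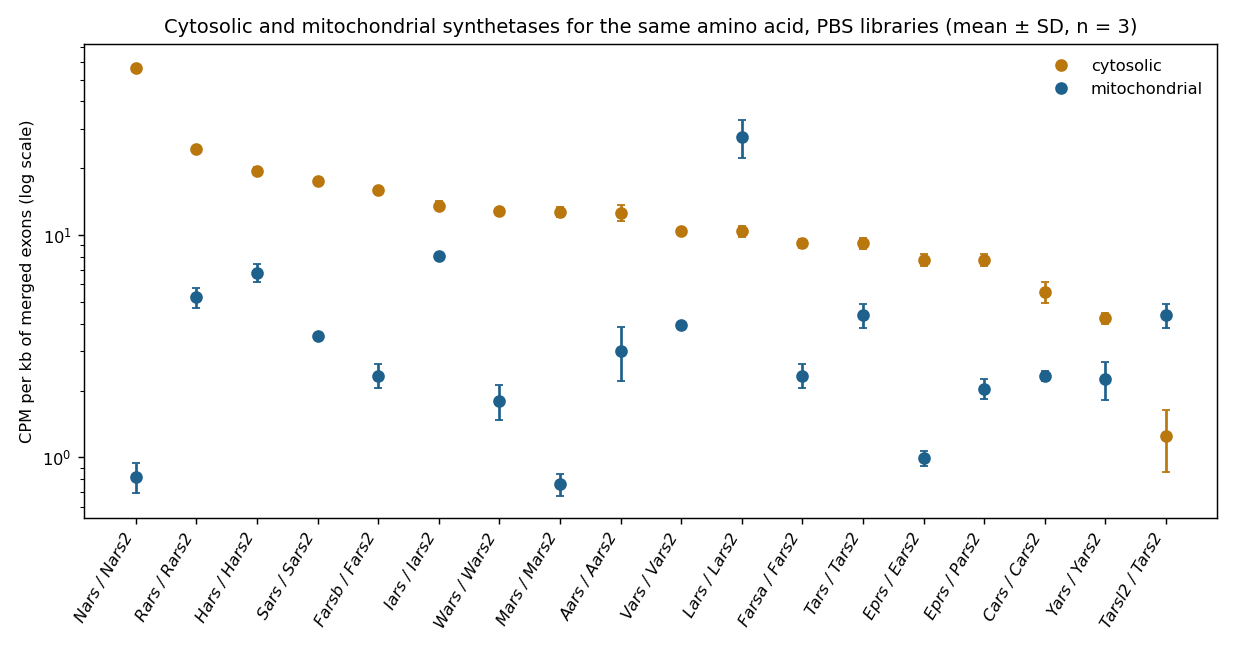
Mean level ± SD over the 3 PBS libraries, in CPM per kilobase of merged exon on a log axis, of the cytosolic (brown) and mitochondrial (blue) synthetase genes of each of 18 amino acid pairs, ordered by the cytosolic level. The brown point lies above the blue one except for Lars with Lars2 and Tarsl2 with Tars2, and the gap is widest for Nars and Nars2.

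Lars2, the mitochondrial leucyl-tRNA synthetase (chr9:123366927-123462666, plus strand), made up 42.3% to 57.8% of the summed mitochondrial level in a library. It had 347, 342 and 299 CPM in BMDM_EKO, 298, 192 and 264 CPM in BMDM_WT, and 238, 332 and 350 CPM in BMDM_PBS. BMDM_EKO lay just above BMDM_WT, and the BMDM_PBS libraries overlapped both. The log2 fold change between the exosome sources was 0.39 ± 0.21 (adjusted p = 0.740) in edgeR and 0.40 in limma-voom, which called it (adjusted p = 0.0398). Gm42418, a gene of the ribosomal RNA locus, had 3873, 3808 and 3140 CPM in BMDM_EKO, 3251, 1561 and 3028 CPM in BMDM_WT, and 2489, 3789 and 4027 CPM in BMDM_PBS. Both genes were lowest in replicate 2 of BMDM_WT, next lowest in replicate 1 of BMDM_PBS and highest in replicate 3 of BMDM_PBS, and a Lars2 transcript shares 72 bases at 98.6% identity with Gm15564, which is also in the list of rRNA-derived genes. The part of rRNA reads in the Lars2 counts was not tested. Without Lars2 the mitochondrial genes summed to 277 ± 6.33 CPM in BMDM_EKO, 264 ± 6.39 CPM in BMDM_WT and 267 ± 10.0 CPM in BMDM_PBS.

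**Figure D4:**
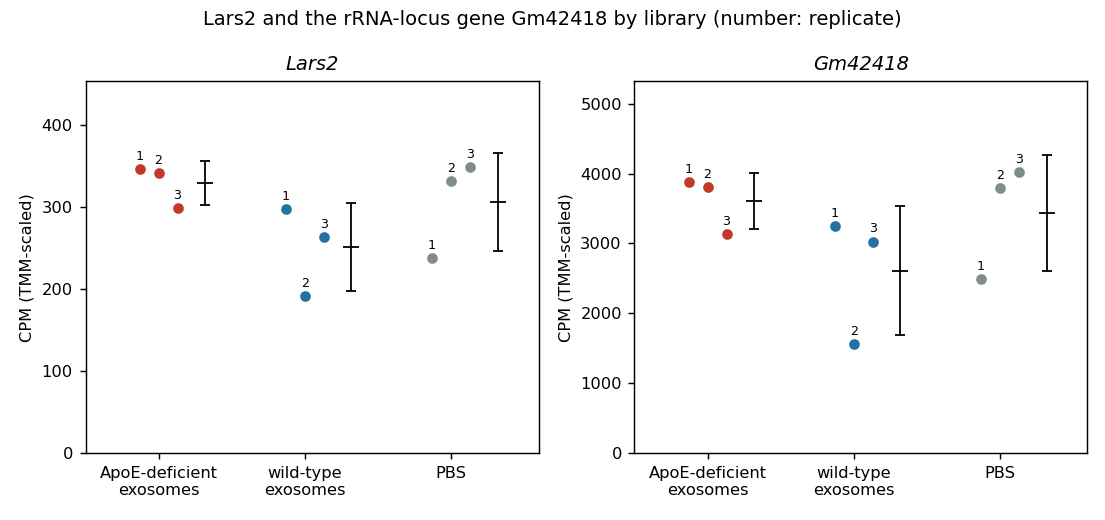
Level of Lars2 (left) and of the rRNA-locus gene Gm42418 (right) in each library (y axes, CPM scaled with TMM factors, from 0; digits are replicate numbers; black, mean ± SD, n = 3). Replicate 2 of wild-type exosomes is lowest and replicate 3 of PBS highest in both panels.

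Among genes that work with the synthetases, the list of uncharged-tRNA sensing and the ATF4 response differed most in its counts. Charging of tRNAs was not measured, and whether its sensing differed between the groups was not tested. Of its 24 tested genes 5 were higher and 0 lower in BMDM_EKO than in BMDM_WT, 5 were lower and 0 higher in BMDM_WT than in BMDM_PBS, and 2 were higher and 0 lower in BMDM_EKO than in BMDM_PBS. Over all genes tested, 0.282% were called higher in the first of these comparisons, 2.18% lower in the second and 1.82% higher in the third. Atf4 had 133, 140 and 129 CPM in BMDM_EKO, 89.6, 94.2 and 99.2 CPM in BMDM_WT, and 117, 118 and 118 CPM in BMDM_PBS. As with Aars and Cars, the BMDM_PBS libraries lay between the exosome groups without overlap. Its log2 fold change was 0.51 ± 0.05 between the exosome sources (adjusted p = 6.97e-08) and 0.19 ± 0.05 in BMDM_EKO against BMDM_PBS (adjusted p = 0.0238).

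Asns, asparagine synthetase, which makes the substrate of Nars, had 18.2, 21.1 and 25.2 CPM in BMDM_EKO, 8.77, 10.4 and 9.14 CPM in BMDM_WT, and 13.8, 18.3 and 14.6 CPM in BMDM_PBS. BMDM_WT lay below both other groups, which overlapped slightly, and the log2 fold change between the exosome sources was 1.19 ± 0.14 (adjusted p = 2.11e-06). Mthfd2, an enzyme of mitochondrial folate metabolism, had 22.2, 29.1 and 25.2 CPM in BMDM_EKO, 8.35, 7.82 and 13.5 CPM in BMDM_WT, and 18.8, 22.0 and 20.3 CPM in BMDM_PBS. Its log2 fold change between the exosome sources was 1.37 ± 0.15 (adjusted p = 3.12e-07), and that of Atf5, a transcription factor of the same response, was 0.56 ± 0.07 (adjusted p = 4.26e-06). The remaining calls, named after their values were seen, were Slc7a1, a carrier of cationic amino acids, at 0.50 ± 0.11 between the exosome sources, and Slc7a5, a carrier of large neutral amino acids, at -1.24 ± 0.29 in BMDM_WT against BMDM_PBS. Without replicate 3 of BMDM_WT 6 genes of the list were called higher between the exosome sources, and 5 lower and 1 higher in BMDM_WT against BMDM_PBS. Between the exosome sources 4 were called higher without any single BMDM_EKO library or without replicate 1 of BMDM_WT, and 5 without replicate 2 of BMDM_WT. In BMDM_EKO against BMDM_PBS the count was 0 without replicate 2 of BMDM_EKO or replicate 1 of BMDM_PBS, and 3 with no filter on low counts.

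No gene was called in edgeR in any comparison among the 3 scaffold genes of the multi-synthetase complex, the 4 of the mitochondrial glutamine amidotransferase and formyltransferase, the 6 of trans-editing and quality control, the 4 of elongation factor 1, which hands charged tRNAs to the ribosome, the 9 mitochondrial translation factors, the 13 tested genes of tRNA 3′ maturation and export, or the 4 tested rRNA-derived genes. In edgeR, 0 of these 43 tested genes had an unadjusted p under 0.05 in BMDM_EKO against BMDM_WT. The counts were 4 in BMDM_WT against BMDM_PBS and 1 in BMDM_EKO against BMDM_PBS. Over all genes tested, 8.15%, 14.0% and 13.1% did so in these comparisons. In limma-voom the counts of the 43 genes were 4, 6 and 3, in the same order. DESeq2 called 1, the rRNA-derived Gm26917, in BMDM_WT against BMDM_PBS (log2 fold change -0.49), and limma-voom called it there and in BMDM_EKO against BMDM_PBS (-0.24). Tsfm, a mitochondrial elongation factor, came nearest in these lists, at 0.49 ± 0.17 in BMDM_EKO against BMDM_PBS (adjusted p = 0.112).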

How the data were processed

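Raw counts were deposited in a table with 1 row per Ensembl gene ID and 1 column per library. Per the labels' protocols, total RNA was taken with a column kit and made into mRNA libraries; the submitters' processing notes list STAR 2.7.5c and GRCm38. What annotation, strand setting or trimming was used is information not given in the sources used here, so reads of overlapping or opposite-strand genes cannot be told apart. All 55536 IDs matched GENCODE mouse release 21, which gave symbols, positions and exon lengths.

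edgeR 4.0.16 in R 4.3.3 fitted a robust quasi-likelihood model to all 9 libraries, with group as its only term, TMM scaling and filterByExpr at a minimum count of 10. The biological coefficient of variation was 12.0%. P-values were adjusted by Benjamini-Hochberg over all 13815 genes tested, and a gene was called at an adjusted p under 0.05; this is the adjusted p printed unless another tool is named. SEs come from the F statistics. CPM precision is limited by counting and by 3 libraries a group. The scripts were run on simulated data with less spread between libraries than these data have, and the outcome is not given here. Chi-square statistics per gene of 6.87 to 10.4 within groups showed no library deposited more than once.

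Alternatives were edgeR with DESeq2 size factors, upper-quartile scaling, no filter, DESeq2 1.42.0, limma-voom (limma 3.58.1), a replicate block, the 6 libraries compared alone, and each library left out in turn. For the ATF4 list they were added after the data were seen. Members with a call were given per library, with others by lowest p up to 12 genes. Members and lists were chosen with earlier results of these data known.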

Additional observations from a re-analysis of the deposited data

Results flagged for a closer look

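Between the exosome sources, 7 synthetases differed by the test of that difference itself, which sets the response to ApoE-deficient exosomes against the response to wild-type exosomes, since the PBS term cancels. The log2 fold changes of BMDM_EKO against BMDM_WT were 0.48 for Aars, 0.65 for Cars, 0.59 for Yars, 0.23 for Eprs, 0.18 for Nars, 0.35 for Mars and 0.24 for Sars, and all 3 BMDM_EKO libraries exceeded all 3 BMDM_WT libraries for each.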

How the results depend on the processing

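Over the alternatives, 176 of the recomputed counts and medians stayed within their limits and 19 moved. DESeq2 called 147 genes between the exosome sources, against 96 in edgeR, and limma-voom called 1 mitochondrial enzyme there, against 0. Leaving out single libraries gave 0 to 1 cytosolic calls in BMDM_EKO against BMDM_PBS, 52 to 101 genes and 3 to 5 cytosolic calls in BMDM_EKO against BMDM_WT, and cytosolic median log2 fold changes of -0.034 to 0.017 in BMDM_WT against BMDM_PBS and 0.036 to 0.12 in BMDM_EKO against BMDM_WT. The cause of these shifts was not tested, and the fits without a library also had fewer libraries. For the named genes, 429 values kept their direction and side of the threshold, 28 lost the call, 1 gained it and 9 changed sign. The sign changes were of uncalled genes, all on losing a library. Over those losses Nars ran from -0.056 to 0.0096 in BMDM_EKO against BMDM_PBS, Gars from -0.066 to 0.084 and Yars2 from -0.14 to 0.12 in BMDM_WT against BMDM_PBS, and Wars from -0.079 to 0.052 in BMDM_EKO against BMDM_WT.

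Over all genes tested, replicate numbers showed no pairing of the libraries: deviations of same-numbered libraries correlated at -0.035 to 0.040, against -0.048 to 0.039 for other pairs. Pairing within part of the genes was not tested. With the replicate block, 144 genes were called between the exosome sources, 669 in BMDM_WT against BMDM_PBS and 662 in BMDM_EKO against BMDM_PBS. Without it these counts were 96, 568 and 585. The synthetase counts stayed at 7, 4 and 1. With DESeq2 size factors or upper-quartile scaling the median log2 fold change of all genes was between -0.0028 and 0.0024 in each comparison. Between the exosome sources the SE was 0.23 for Nars2, with 140 counts in its lowest library. It was 0.067 for Iars2, with 1837 counts in its lowest library, and 0.21 for Lars2, with up to 12399 counts. What sets the precision of the mitochondrial members was not tested.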
